A study of Mus musculus with 2 samples.

Results

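Medullary thymic epithelial cells that carried Fezf2 transcripts but no Aire transcript were described in single-cell RNA sequencing data of the mouse thymus. A cell was counted in this class when it held at least 2 UMIs (unique molecular identifiers, each standing for 1 captured transcript) of Fezf2, 0 UMIs of Aire, and a UMI in fewer than 3 of the 6 cell cycle genes Mki67, Top2a, Birc5, Cdk1, Ube2c and Pclaf. These cells, called Aire-negative Fezf2 cells below, numbered 592 of 7621 kept cells, 255 in the library labelled Foxp1 KO and 337 in the library labelled Foxp1 WT. They were set against the non-cycling cells with at least 2 Fezf2 UMIs and at least 1 Aire UMI, called Aire-positive Fezf2 cells, of which there were 541 (KO) and 941 (WT).

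Each library came from sorted live EPCAM+ cells of digested mouse thymus, with 1 library from Cre+ and 1 from Cre- animals of a Foxp1 line. The libraries were told apart by their titles, since the genotype label says KO in each case. The Cre driver, the deleted part of Foxp1, the number of animals pooled and their age are not stated in the labels. The study asked whether Foxp1 controls genes that depend on Fezf2 and the variety of mimetic cells. With 1 library per genotype and cells that are no replicates, no p-value was computed. All intervals are exact or log-based 95% intervals that cover counting error only.

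The medulla of the thymus shows developing T cells a sample of the genes that other organs use, so that self-reactive T cells can be removed or diverted. Fezf2 and Aire are transcriptional regulators that each drive many of these tissue-restricted genes in medullary epithelium, Aire late in maturation beside high MHC class II and co-stimulatory ligands. Medullary cells also include Ccl21a-producing cells that attract thymocytes, and mimetic cells, which carry the programs of skin, gut, tuft, microfold, ciliated or endocrine cells.

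The label held for Epcam, an epithelial surface protein, and for the keratins. Epcam UMIs were found in 223 of 255 (87.5%) and 293 of 337 (86.9%) of the Aire-negative Fezf2 cells. Of the 7 epithelial markers, 7 were higher in them than in the Aire-positive cells in both libraries. Lists of endothelial, mesenchymal, thymocyte or myeloid markers were carried, with a UMI in at least 3 genes, by 11 (4.31%) and 14 (4.15%) of the Aire-negative cells against 135 of 541 and 157 of 941 Aire-positive cells. The Aire-positive cells were deeper, and these shares go with depth. Thinned to 2000 UMIs per cell, the endothelial list was carried by 1.6% (KO) and 0.96% (WT) against 4.47% and 1.39%. Each of the other lists was then carried by 0.56% or less of either class. The targeted gene went against the labels. Foxp1 stood at 403 CPM (a gene's summed UMIs scaled to one common total per class) in the Aire-negative cells of the KO library and 262 CPM in the WT library, a log2 ratio of 0.62 [0.48, 0.77], and at 178 and 139 CPM in the Aire-positive cells. A whole-gene count can hold transcripts that lack a deleted exon, so this count does not test the deletion, and every direction between the libraries below is between the libraries as labelled.

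The counts that chose the cells were low, and the choice moved with depth. Exactly 2 Fezf2 UMIs were held by 127 of 255 Aire-negative cells in the KO library and by 138 of 337 in the WT library. Just outside the class lay 372 and 361 non-cycling cells with 1 Fezf2 and 0 Aire UMIs, and 68 and 109 Aire-positive cells with a single Aire UMI. On the cycle rule, 10 and 5 members held UMIs in 2 of the 6 genes, and 1 and 2 cells with Fezf2 but no Aire lay outside at 3 genes. The Aire-negative cells held a median of 7344 (KO) and 7672 (WT) UMIs and the Aire-positive cells 11446 and 12284. Stray Fezf2 RNA was gauged in Epcam-negative cells that carry endothelial markers. There, 12 of 149 (8.05%, median depth 2441 UMIs) and 10 of 51 (19.6%, median depth 3291 UMIs) held a Fezf2 UMI, 5 in each library held at least 2, and 0 and 1 fell into the Aire-negative class.

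The Aire-negative cells made up 7.11% [6.29, 8.01] of the kept cells in the KO library and 8.35% [7.51, 9.24] in the WT library, a log2 ratio of -0.23 [-0.46, -0.0050]. Among the non-cycling Fezf2 cells alone the order was the other way round, with 32.0% [28.8, 35.4] without Aire in the KO library and 26.4% [24.0, 28.9] in the WT library (log2 ratio 0.28 [0.08, 0.48]). The Aire-positive Fezf2 cells were 15.1% of the kept cells in the KO library and 23.3% in the WT library. The share without Aire was also given by depth, as the classes differ in depth.

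Within ranges of depth, the share without Aire was lowest in the deepest cells of both libraries. At 1000 to 2000 UMIs it was 55.6% (5 of 9) in the KO library and 76.5% (26 of 34) in the WT library, a log2 ratio of -0.46 [-1.35, 0.42]. At 16000 or more UMIs it was 11.2% (15 of 134) in the KO library and 10.5% (28 of 267) in the WT library. At 8000 to 16000 UMIs it was 23.7% (102 of 430) and 18.9% (129 of 682), a log2 ratio of 0.33 [-0.01, 0.66]. At 4000 to 8000 UMIs the libraries stood at 52.4% (88 of 168) and 50.9% (110 of 216). The interval of the ratio lay above 0 in the range from 2000 to 4000 UMIs alone, with 81.8% (45 of 55) against 55.7% (44 of 79).

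**Figure D1:**
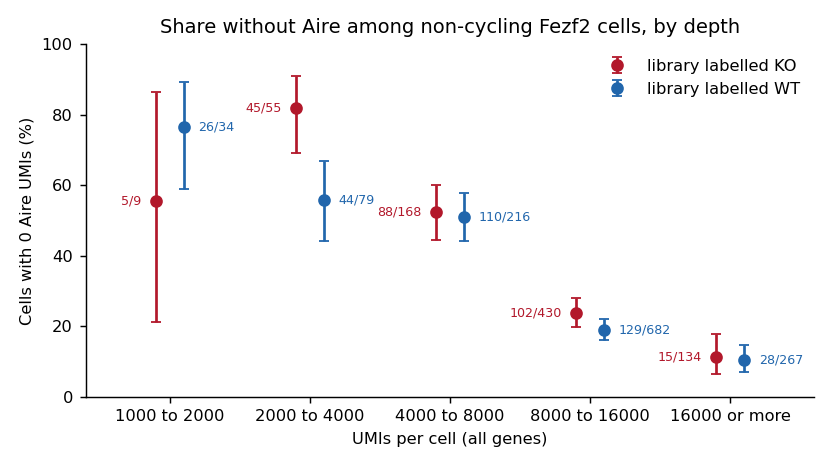
Share of non-cycling Fezf2 cells with 0 Aire UMIs (y axis, %) by the total UMIs of the cell (x axis), for the libraries labelled KO and WT, with exact Clopper-Pearson intervals and the counts beside each point. The share is above 50% up to 8000 UMIs and 11.2% and 10.5% at 16000 or more.

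Compared with the Aire-positive cells, the Aire-negative Fezf2 cells had higher transcripts of keratinocyte-type genes and of markers of Ccl21a-producing cells, and lower transcripts of MHC class II genes and of several lipocalins. Of 10490 genes with a mean of at least 10 CPM, 603 (5.75%) were at least 2-fold higher and 575 (5.48%) at least 2-fold lower in both libraries. The split was made on Aire, so a gene whose counts go with Aire was chosen along with it, and the differences are a description with no test. Across the genes, the log2 ratios of the 2 libraries had a Pearson r of 0.762 (10478 genes, whose sums share the depth gap between the classes), and 26 genes were 2-fold apart in opposite directions. The median log2 ratio over all compared genes was 0.16 (KO) and 0.11 (WT). Scaling by median-of-ratios size factors moved it by -0.10 in the KO library and -0.03 in the WT library, and list medians below stand against it.

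**Figure D2:**
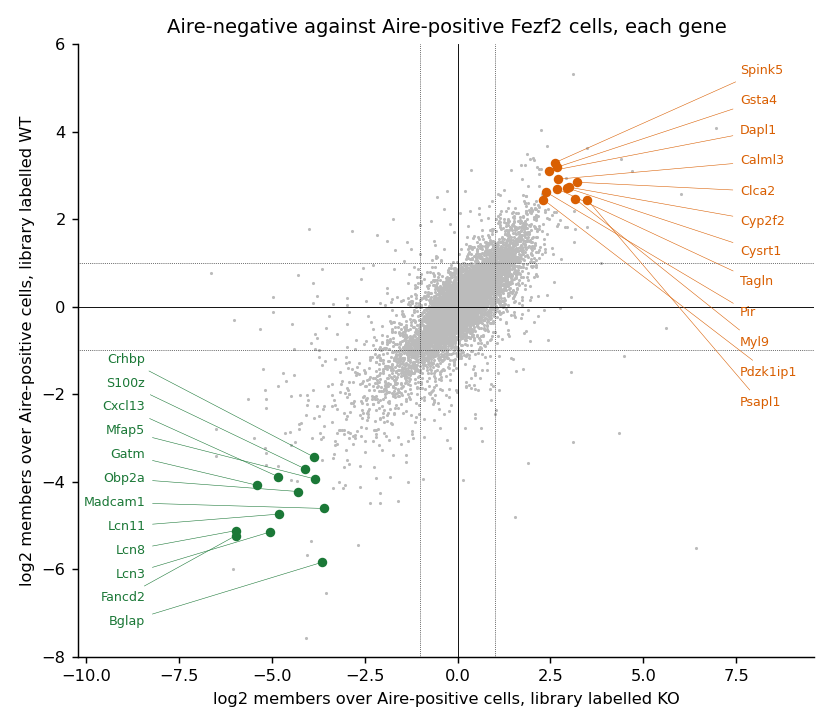
Log2 ratio of summed CPM in Aire-negative over Aire-positive Fezf2 cells for 10490 genes (points), library labelled KO on the x axis and WT on the y axis, with dotted lines at 2-fold and sums of 0 set to 3 UMIs. The 12 highest genes (orange) lie above 2 in both libraries and the 12 lowest (green) below -3 in both.

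The 12 genes lowest in the Aire-negative cells included a run of lipocalin genes, small secreted carriers of lipids and odorants made mainly in the male reproductive tract and nose. Lcn8, Obp2a, Lcn3 and Lcn11 lie on the plus strand of chromosome 2 (mm10, GENCODE release M21), from the start of Lcn8 at 25653120 to the end of Lcn11 at 25780279. The bases just before their start sites are shown because these 4 neighbouring genes were all among the 12 lowest, with those of Krt5 and Dapl1, genes high in the same cells, for comparison. They are RefSeq promoter sequences of build GRCm38.p6, 5′ to 3′ on the strand of the gene, stopping before any annotated gene begins. Capitals mark TATAA, the core of a TATA box, or its reverse complement TTATA.
Lcn8: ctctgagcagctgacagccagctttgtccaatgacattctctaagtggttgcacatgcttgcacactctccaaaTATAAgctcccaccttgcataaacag
Obp2a: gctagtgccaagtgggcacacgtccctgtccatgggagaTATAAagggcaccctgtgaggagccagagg
Lcn3: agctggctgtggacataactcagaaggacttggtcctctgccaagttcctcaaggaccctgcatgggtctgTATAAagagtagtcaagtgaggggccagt
Lcn11: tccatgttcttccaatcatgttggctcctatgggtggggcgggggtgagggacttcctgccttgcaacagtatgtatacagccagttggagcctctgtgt
Krt5: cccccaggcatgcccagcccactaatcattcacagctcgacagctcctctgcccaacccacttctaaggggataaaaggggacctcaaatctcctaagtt
Dapl1: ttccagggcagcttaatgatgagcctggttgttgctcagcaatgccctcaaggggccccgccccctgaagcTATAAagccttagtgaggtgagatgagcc
The printed windows are chr2:25653018-25653117 (Lcn8), chr2:25699974-25700042 (Obp2a), chr2:25765433-25765532 (Lcn3), chr2:25776917-25777016 (Lcn11), chr15:101712906-101713005 on the minus strand (Krt5) and chr2:59484553-59484652 (Dapl1). A match lay 26 bases before the RefSeq start of Lcn8, 61 before that of Obp2a, and 29 before that of Lcn3 and of Dapl1. Counted from the GENCODE starts, the distances were 28 (Lcn8), 30 (Obp2a), 65 (Lcn3) and 29 bases (Dapl1). The windows of Lcn11 and Krt5 held no match to these letters. A window of 100 bases before the start held either motif in 10.2% of 32851 promoters in the RefSeq table. The share was 12.2% of 583 promoters of genes higher in the Aire-negative cells, 14.0% of 559 promoters of genes lower in them, and 6.0% of 10660 promoters of all compared genes, with a promoter entry for 444 of 603, 430 of 575 and 8250 of 10490 genes. A match in letters is not a bound site.

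Obp2a, an odorant-binding protein gene, was at 5.63 CPM in Aire-negative and 110 CPM in Aire-positive cells of the KO library, and at 5.73 and 107 CPM in the WT library. Lcn8 was at 0.470 against 29.1 CPM (KO) and 0.716 against 24.8 CPM (WT). Those lows rest on 1 and 2 UMIs, and the log2 ratios were -5.95 [-11.3, -3.46] and -5.12 [-8.17, -3.25]. Lcn3 (1 and 2 UMIs) and Lcn11 (2 and 3 UMIs) were low in the same way, with log2 ratios from -5.15 to -4.74.

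The stretch was not uniform, as its other genes, looked up after these values had been seen, show. Lcn6, below the level filter, had 0 UMIs in the Aire-negative cells of both libraries against 46 (KO) and 186 (WT) in the Aire-positive cells, which makes it at least 4.72-fold and at least 13.7-fold lower, with 3 UMIs per class taken as the limit of a count of 0. Lcn10 had 1 and 7 UMIs against 84 and 183. Bmyc, a Myc-family gene in the middle of the stretch, differed less, with log2 ratios of -0.76 [-1.19, -0.36] and -1.0 [-1.45, -0.58]. Fcna, the first gene before Lcn8, was low as well, at -2.11 [-3.78, -0.82] and -2.61 [-4.26, -1.35], with 5 UMIs in the Aire-negative cells of each library. Tmem141, the next gene out, was 0.60 [-0.20, 1.36] and 1.45 [0.80, 2.08].

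A second neighbouring pair was among the 12 lowest genes. Crhbp, which encodes the binding protein of corticotropin-releasing hormone, and S100z, a calcium-binding S100 gene, lie side by side on the minus strand of chromosome 13 (95431371 to 95444924 and 95477268 to 95478721). Crhbp was at 3.29 CPM in Aire-negative and 48.0 CPM in Aire-positive cells (KO), and at 6.44 and 69.6 CPM (WT). S100z had 3 and 4 UMIs in the Aire-negative cells, with log2 ratios of -4.10 [-6.39, -2.53] and -3.71 [-5.60, -2.33]. The flanking genes differed less, F2rl1 by -0.68 and -0.49 and Aggf1 by 0.30 and 0.15.

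The other genes among the 12 lowest belong to unrelated tissues and processes. Fancd2, a DNA crosslink repair gene, was at 3.76 against 234 CPM (KO) and 3.58 against 134 CPM (WT). Gatm, which makes the precursor of creatine, was at 1.88 against 79.4 CPM and 4.65 against 78.7 CPM. Cxcl13, a B cell chemokine, had log2 ratios of -4.82 [-6.04, -3.83] and -3.89 [-4.77, -3.13]. Bglap (osteocalcin of bone), Madcam1 (a vascular addressin) and Mfap5 (a microfibril protein) were at 4.70 CPM or less in the Aire-negative cells of both libraries. Mfap5 had 0 UMIs in the KO library, so its log2 ratio of -3.82 is a limit set by 3 UMIs. Most of these transcripts came from a minority of Aire-positive cells, with Fancd2 UMIs in 12.4% and 10.4% of them and Crhbp UMIs in 22.2% and 29.3%.

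At the other end, the 12 highest genes were of several kinds. Spink5, an epidermal protease inhibitor, was at 244 CPM in Aire-negative and 39.6 CPM in Aire-positive cells (KO), and at 535 and 54.7 CPM (WT). Dapl1, a gene of epithelial differentiation, was at 521 against 94.4 CPM and 1168 against 137 CPM. Calml3, a calmodulin of stratified epithelia, was at 73.7 against 11.4 CPM and 120 against 15.9 CPM. Both classes held UMIs of these genes in both libraries, and the Aire-negative cells were the higher each time. Thinned to 2000 UMIs per cell, Dapl1 was found in 25.2% and 31.2% of Aire-negative and in 4.66% and 10.3% of Aire-positive cells. Epcam-negative endothelial cells thinned in the same way held it in 4 of 96 and 4 of 40, close to the Aire-positive share. The part of stray RNA in the Aire-positive cells was not tested.

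Tagln and Myl9, which encode an actin-binding protein and a myosin light chain of contractile cells, were higher by 2.68 [2.49, 2.87] and 3.16 [2.47, 3.90] (KO) and by 2.69 [2.52, 2.87] and 2.47 [1.90, 3.04] (WT) on the log2 scale. Cyp2f2, a cytochrome P450 of airway secretory cells, was at 86.9 against 10.8 CPM and 125 against 18.8 CPM, and Gsta4, a glutathione transferase, at 151 against 23.7 CPM and 246 against 27.1 CPM. Clca2, Cysrt1, Psapl1, Pir and Pdzk1ip1 made up the 12, with log2 ratios from 2.31 to 3.49. Thinned to 2000 UMIs per cell, Spink5 was found in 16.0% and 18.3% of Aire-negative and in 3.54% and 3.54% of Aire-positive cells (20.4% and 25.2%, and 9.24% and 9.25%, before thinning). The Epcam-negative endothelial cells thinned in the same way held it in 0 of 96 (exact interval up to 3.77%) and 1 of 40. Tagln was found at that depth in 21.6% and 16.7% of Aire-negative and in 4.47% and 3.75% of Aire-positive cells. The Epcam-negative endothelial cells held Tagln in 6 of 96 and 2 of 40, near the Aire-positive share. The part of stray RNA was not tested. Over all compared genes, 6295 (KO) and 6081 (WT) of 10490 were higher and 5.75% at least 2-fold in both. Of 10 compared keratinocyte-type markers, 9 were higher in both libraries and 8 at least 2-fold, with medians of 1.63 and 2.20. Of 10 tuft-type markers 9 were higher, 3 at least 2-fold, and of 8 microfold-type markers 6 were higher and 2 lower. Among the last, Gp2, a receptor that microfold cells use to take up bacteria, was at 106 against 9.40 CPM (KO) and 108 against 30.4 CPM (WT).

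Markers of the Ccl21a-producing medullary cells were higher as a group. All 7 of their compared genes were higher in both libraries, 3 of them at least 2-fold (background 5.75%), with medians of 1.51 and 1.21. Krt5, a basal keratin, was at 595 against 117 CPM (KO) and 628 against 135 CPM (WT), and Ccl21a itself at 4522 against 722 CPM and 2462 against 549 CPM. Krt5 UMIs were in 43.2% and 41.2% of the Aire-negative cells at 2000 UMIs (57.6% and 55.5% before thinning), in 12.1% and 11.3% of the Aire-positive cells (30.3% and 31.2%), and in 2 of 96 and 2 of 40 Epcam-negative endothelial cells. The remaining non-cycling cells, mostly without Fezf2, held Krt5 in 38.9% and 39.8% at that depth, close to the share in the Aire-negative cells. Ccl21a UMIs were then in 52% and 42.8% of the Aire-negative and in 30.9% and 30.1% of the Aire-positive cells. Of the Epcam-negative endothelial cells, 14 of 96 and 7 of 40 held Ccl21a at that depth. The part of stray RNA in the Ccl21a counts was not tested.

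MHC class II presentation was lower throughout. All 11 compared genes were lower in both libraries, 3 at least 2-fold (background 5.48%), with median log2 ratios of -1.0 (KO) and -0.70 (WT). H2-Aa, an alpha chain of the class II dimer, was at 1948 against 3902 CPM (KO) and 2739 against 4435 CPM (WT). Ciita, the master activator of these genes, was at 60.6 against 140 CPM and 60.1 against 151 CPM. H2-DMb2, of the peptide-loading factor H2-DM, was at 122 against 387 CPM and 131 against 366 CPM. Class I presentation differed little, with 7 of 12 genes higher and 2 lower in both libraries, 0 at 2-fold, and medians of 0.17 and 0.22.

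The co-stimulatory and maturation genes were lower in 13 of 17 and higher in 3 of 17. Of all 10490 compared genes, 4195 (KO) and 4409 (WT) were lower. Cd40, the receptor of the T cell ligand CD40L, was at 46.0 against 167 CPM (KO) and 34.7 against 155 CPM (WT). Thinned to 2000 UMIs per cell, it was found in 7.6% and 7.72% of Aire-negative and 29.4% and 24.7% of Aire-positive cells. Epcam-negative endothelial cells held it in 7 of 96 and 5 of 40 at that depth. The part of stray RNA in the Aire-negative cells was not tested. Cd80, a ligand of CD28, was at 54.5 against 123 CPM and 70.5 against 158 CPM, and Srgn, a granule proteoglycan, at 842 against 2771 CPM and 1078 against 2493 CPM. Tnfrsf11a, the receptor RANK that drives medullary maturation, differed little, at 205 against 246 CPM and 206 against 251 CPM. Ltbr, the lymphotoxin beta receptor, was higher at 23.5 against 9.83 CPM and 23.3 against 11.0 CPM. Among 7 compared T cell ligands, Icosl (27.7 against 150 CPM and 20.4 against 123 CPM) and Cd70 were at least 2-fold lower (background 5.48%). Nectin2 was at least 2-fold higher (background 5.75%).

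Both self-antigen lists held more lower than higher genes. Of 6 compared genes that are known to depend on Aire, 5 were lower and 1, Reg3g, was higher. Ins2 (insulin), S100a8, Pcp4 and Sst (somatostatin) were at least 2-fold lower (background 5.48%). S100a8 was at 217 against 881 CPM (KO) and 85.2 against 822 CPM (WT). Of 11 compared genes linked to Fezf2, 4 were at least 2-fold lower (Calb1, Csn2, Coch and Maoa) and 2 at least 2-fold higher (Krt10 and Ttr, background 5.75%), with medians of -0.61 and -0.52. Csn2, a milk casein, was at 352 against 1014 CPM and 363 against 1086 CPM. For Ttr, 462 of its 475 UMIs in the Aire-negative cells of the KO library lay in 1 cell. Without the top cell of each class its log2 ratios were 1.82 and 3.02. Fezf2 itself, used by the rule, was at 409 against 546 CPM and 478 against 602 CPM.

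Stress and interferon genes were higher in the Aire-negative cells. Among 17 heat shock and immediate early genes, 16 were higher in both libraries, 4 at least 2-fold (background 5.75%), with medians of 0.85 and 0.79. Of all 10490 compared genes, 6295 (KO) and 6081 (WT) were higher. Atf3, a stress-induced transcription factor, was at 703 against 225 CPM (KO) and 873 against 274 CPM (WT). Of 14 interferon-induced genes, 12 were higher and 1 lower, 6 at least 2-fold higher (background 5.75%), with medians of 0.74 and 0.86. Isg15, a ubiquitin-like modifier, was at 315 against 133 CPM and 261 against 110 CPM. Of 11 unfolded protein response genes, 7 were lower and 4 higher, among them the chaperone Hsp90b1 at 545 against 1059 CPM and 553 against 1108 CPM and the transcription factor Xbp1 at 103 against 52.1 CPM and 129 against 74.3 CPM.

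Cortical genes and regulators of mimetic cells differed in mixed ways. Of 7 cortical genes 6 were lower, including Foxn1, the master regulator of thymic epithelium, at 30.5 against 52.1 CPM and 55.5 against 104 CPM. Ctsl, a lysosomal protease, was the exception at 812 against 273 CPM and 403 against 194 CPM. Of 14 compared lineage regulators of mimetic cells, Pou2f3 (tuft cells) and Klf4 (barrier epithelium) were at least 2-fold higher (background 5.75%). Cdx1 (intestine) was at least 2-fold lower (background 5.48%). Of 16 genes of Fezf2 and Aire partner complexes, 1 was at least 2-fold lower, near the background of 5.48%. It was Sirt1, a deacetylase known to act on Aire, at 93.5 against 349 CPM and 175 against 458 CPM. Chd4, a nucleosome remodeller that partners Fezf2, stood at 185 against 178 CPM and 185 against 202 CPM.

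The Aire-negative class was a mixture, as was the Aire-positive class. With a UMI in at least 3 genes of a list, gut- and liver-type markers were carried by 20.4% (KO) and 23.4% (WT) of the cells, keratinocyte-type markers by 56 of 255 and 80 of 337, microfold-type by 18.8% and 13.1%, tuft-type by 10.6% and 9.20%, neuroendocrine-type by 9.41% and 5.64%, ciliated-type by 5.49% and 3.56%, and muscle-type by 1.18% and 0.593%. None of the 7 mimetic lists was carried by 116 cells (45.5%) in the KO library and 161 (47.8%) in the WT library, 1 list by 79 and 111 cells, and 2 or more by 60 and 65. Of the deeper Aire-positive cells, 42.3% and 42.5% carried none, 27.0% and 31.0% the gut- and liver-type list, 31.6% and 32.0% the microfold-type list, and 13.5% in each library the keratinocyte-type list. Median depth was higher with that number, from 5932 and 5588 UMIs through 7727 and 8364 to 10436 and 11973, so a count of lists is partly a count of UMIs. At 2000 UMIs per cell, keratinocyte-type markers remained more frequent in the Aire-negative cells, at 10.8% and 11.6% against 2.61% and 2.68% in the Aire-positive cells. For 2 other lists the order turned at that depth in both libraries. The microfold-type list was carried by 8.4% and 3.86% of Aire-negative against 3.17% and 3.64% of Aire-positive cells. The gut- and liver-type list was carried by 9.6% and 13.5% against 8.75% and 9.32%. In the WT library alone the tuft-type list turned too, from 9.20% against 11.1% to 6.11% against 4.61%. The neuroendocrine-type list turned there from 5.64% against 7.76% to 2.25% against 1.71%.

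Ccl21a divided the class, and the levels of several genes went with it, not always step by step. It had 0 UMIs in 93 (KO) and 148 (WT) of the cells, 1 to 9 in 65 and 105, 10 to 99 in 57 and 61, and 100 or more in 40 and 23. Median depth was 7260 and 6708.5 UMIs in the first of these ranges and 10543.5 and 10081 in the last. From the first to the last of these ranges, Krt5 went from 271 to 1072 CPM (KO) and from 432 to 1010 CPM (WT). Tagln, the contractile gene, went from 7.22 to 1014 CPM and from 4.70 to 1060 CPM. Spink5 went the other way, from 520 to 46.7 CPM and from 1016 to 11.4 CPM. Reg3g, a gut antimicrobial lectin, went from 2164 to 342 CPM and from 2499 to 163 CPM, and Cd80 from 80.8 to 15.6 CPM and from 79.9 to 11.4 CPM. In the middle ranges Spink5 was at 243 and 21.7 CPM (KO) and at 386 and 140 CPM (WT). Reg3g was at 196 CPM with 10 to 99 Ccl21a UMIs in the KO library, below the last range. Cd80 was at 106 CPM with 1 to 9 in the WT library, above the first range. Dapl1 was highest in the cells without Ccl21a, at 1086 and 2233 CPM, but still at 594 CPM in WT cells with 100 or more Ccl21a UMIs. Of the Aire-positive cells, 2.22% and 1.49% (12 and 14 cells) held 100 or more Ccl21a UMIs. For Krt5 and Tagln the split was seen in that class too. From 0 to 100 or more Ccl21a UMIs, Krt5 went there from 41.3 to 954 CPM (KO) and from 63.2 to 612 CPM (WT). Tagln went from 8.57 to 505 CPM and from 9.70 to 342 CPM. Spink5 went there from 40.1 and 28.4 CPM to 0, but did not fall before the last range. In the middle ranges it was at 38.2 and 50.1 CPM (KO) and at 65.3 and 83.7 CPM (WT).

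**Figure D3:**
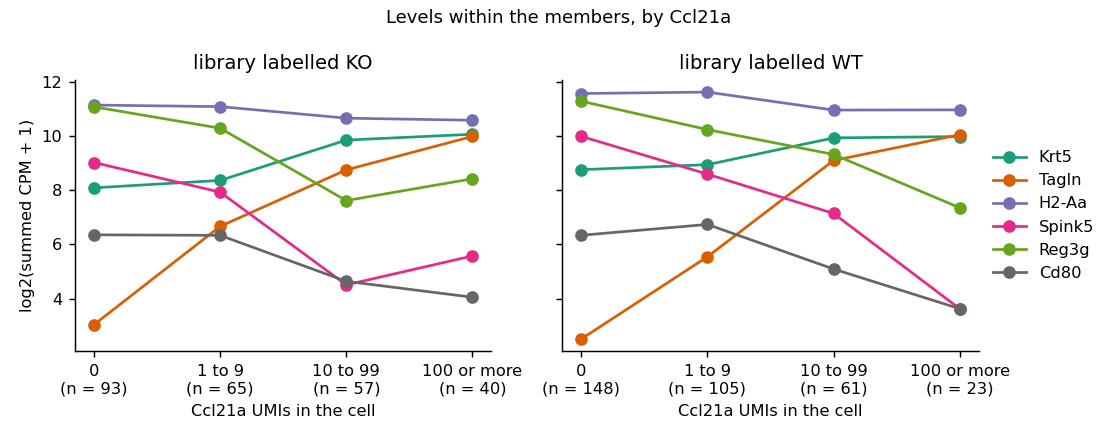
Levels of 6 genes in the Aire-negative Fezf2 cells, as log2(summed CPM + 1) on the y axis, by the Ccl21a UMIs of the cell on the x axis, for the libraries labelled KO (left) and WT (right), with the number of cells under each range. Krt5 and Tagln are higher, and Spink5, Reg3g and Cd80 lower, in the cells with 100 or more Ccl21a UMIs than in those with 0, in both libraries.

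Leaving out every cell that carried a mimetic list, from both classes, kept the contrast of the Ccl21a and maturation genes. This comparison was added after the data had been seen and left 116 and 161 Aire-negative against 229 and 400 Aire-positive cells. Krt5 was then at 925 against 79.3 CPM (KO) and 844 against 94.3 CPM (WT), Tagln at 651 against 45.9 CPM and 518 against 31.9 CPM, and H2-Aa at 2049 against 4159 CPM and 2535 against 4492 CPM. Of the 12 highest genes, Pdzk1ip1 turned to -0.68 and -0.22 and Pir to -0.10 in the KO library, where it had 0 UMIs. Psapl1 had 0 UMIs in both classes of the KO library and an interval holding 0 in the WT library. The intervals of Cysrt1 (both libraries) and Gsta4 (KO) also held 0. Those of Clca2, Cyp2f2, Calml3, Tagln, Spink5, Myl9 and Dapl1 stayed above 0 in both libraries. Spink5, itself a list gene, was at 20.6 against 5.37 CPM (KO) and 65.7 against 3.78 CPM (WT). The 12 lowest genes were lower in both libraries here too, with sums of 0 set to 3 UMIs for Lcn3, Gatm and Mfap5 (KO). Of 9988 genes compared here, 879 were at least 2-fold higher and 790 lower, against 603 and 575 of 10490 with all cells. Of the 879 and 790 genes, 370 and 439 were also called with all cells.

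For Krt5 and for the sums of the 12 highest and 12 lowest genes, the contrast was graded in the number of Aire UMIs. To hold depth nearly level, non-cycling Fezf2 cells of 5000 to 12000 UMIs were divided by their Aire UMIs into 0, 1, 2 to 4 and 5 or more, with 133, 41, 48 and 187 cells in the KO library and 176, 52, 85 and 248 in the WT library. Krt5 went from 638 through 231 and 110 to 40.0 CPM (KO) and from 732 through 390 and 153 to 50.2 CPM (WT). The 12 highest genes summed to 1806, 721, 185 and 76.1 CPM, and to 3274, 1232, 455 and 117 CPM. The 12 lowest genes summed to 28.6, 179, 416 and 1323 CPM, and to 32.8, 68.2, 487 and 998 CPM. Cells with a single Aire UMI had sums between those of the cells with 0 and with 2 to 4. A UMI of Aire was also found in 24 of 149 and 10 of 51 Epcam-negative cells with endothelial markers, and the part of stray RNA in the single-UMI cells was not tested. As the 12 highest and 12 lowest genes were picked from the same contrast, the order of the first and last steps was fixed by the choice. Single genes were not all graded. Cd80 was at 55.3, 57.7, 178 and 148 CPM (KO) and at 86.5, 121, 147 and 201 CPM (WT). Fancd2 was at 0, 5.77, 26.8 and 374 CPM (KO) and at 4.18, 8.52, 175 and 16.2 CPM (WT). Median depth still rose with the steps, from 7779 to 9702 UMIs (KO) and from 8013.5 to 9880.5 UMIs (WT).

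**Figure D4:**
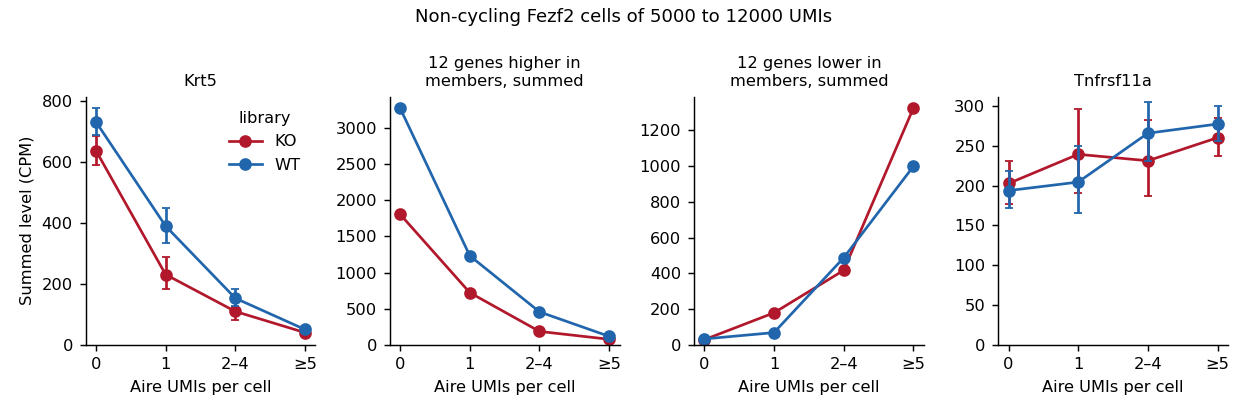
Summed CPM (y axis) of Krt5, of the 12 genes highest and the 12 genes lowest in Aire-negative cells, and of Tnfrsf11a, by Aire UMIs per cell (x axis) in non-cycling Fezf2 cells of 5000 to 12000 UMIs, with exact Poisson intervals for the single genes. Krt5 and the sum of the higher genes decrease and the sum of the lower genes increases at each step in both libraries, while Tnfrsf11a stays between 194 and 278 CPM.

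Between the libraries, skin-type, gut-type and class II genes of the Aire-negative cells were mostly lower, and ciliated-type genes and Ccl21a higher, in the library labelled KO. Of 10293 genes with a mean of at least 10 CPM, 234 (2.27%) were at least 2-fold higher in the KO library and 230 (2.23%) at least 2-fold lower, with a median log2 ratio of 0.02. Of these, 14 of 234 and 29 of 230 were also 2-fold apart in the same direction in the Aire-positive cells. Animal, sort and capture cannot be told apart from genotype here.

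Keratinocyte-type genes were lower and ciliated-type genes higher in the KO library. All 11 compared keratinocyte-type genes were lower, 4 at least 2-fold (background 2.23%), with a median of -0.58. Krtdap, a keratinocyte differentiation gene, was at 594 against 780 CPM and Calm4, an epidermal calmodulin, at 126 against 379 CPM (log2 ratio -1.59 [-1.79, -1.40]). The list was carried by 56 of 255 and 80 of 337 cells. In those cells Spink5 was at 722 CPM in the KO and 1316 CPM in the WT library, and Dapl1 at 1533 and 2889 CPM.

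All 5 compared ciliated-type genes were higher, 4 at least 2-fold (background 2.27%), with a median of 2.01, in a list that 14 and 12 cells carried. Dnah5, a dynein heavy chain of motile cilia, was at 41.8 against 5.37 CPM (2.96 [2.16, 3.86]), with UMIs in 16 and 8 cells. Tppp3, a microtubule-binding protein, was at 109 against 44.0 CPM. In the Aire-positive cells Dnah5 stood at 14.0 and 14.9 CPM, and Foxj1, the ciliary master regulator, was at 31.0 and 30.4 CPM in the Aire-negative cells (0.03 [-0.46, 0.51]).

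Ccl21a and Ctsl were higher in the KO library and class II genes lower. Ccl21a had a log2 ratio of 0.88 [0.83, 0.92] in the Aire-negative and 0.40 in the Aire-positive cells, and cells with 100 or more Ccl21a UMIs were 15.7% [11.4, 20.7] of the Aire-negative cells in the KO library against 6.82% [4.38, 10.1] in the WT library. Ctsl was 1.01 [0.90, 1.12]. Of 11 class II genes 9 were lower, 0 at 2-fold, with a median of -0.39 against -0.07 in the Aire-positive cells. Of 14 interferon genes 12 were higher, 0 at 2-fold, with a median of 0.27. Among 17 heat shock and immediate early genes 13 were lower, 2 at least 2-fold (background 2.23%). These were Hspa1a (-1.07 [-1.2, -0.94]) and Hspa1b (-1.04 [-1.16, -0.92]), chaperones that were also lower in the Aire-positive cells (-1.17 and -1.37).

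Of 13 compared gut- and liver-type genes 9 were lower in the KO library, 4 of them at least 2-fold (background 2.23%), and 2 were at least 2-fold higher (background 2.27%). Saa1, an acute phase protein, was at 205 against 502 CPM (-1.30 [-1.45, -1.14]) and Apoa4, a lipoprotein component, at 51.2 against 160 CPM (-1.64 [-1.96, -1.34]). Reg3b, an antimicrobial lectin, was 2.02 higher, but 496 of its 520 UMIs in the KO library lay in 1 cell and without the top cell of each library the ratio was -1.84.

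The same gathering in single cells held for several genes with the largest ratios, so each named gene was also computed without the cell holding most of its UMIs in each library, an alternative added after the data had been seen. Trp53cor1, a non-coding RNA induced by p53, had 216 of 230 UMIs in 1 KO cell, and its log2 ratio of 2.99 [2.49, 3.52] became -0.04 [-1.15, 1.03]. Gpr157 went from 2.21 to 0.03 and Trim23 from 2.21 to 0.44 (120 of 148 and 78 of 106 UMIs in 1 cell). In the other direction, Hscb, an iron-sulphur co-chaperone, had 173 of 197 UMIs in 1 WT cell and went from -2.84 to 0.13, and Pip4k2b, a lipid kinase with 122 of 145 UMIs in 1 WT cell, went from -3.62 to -1.13.

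Other named genes kept an interval away from 0 without those cells. The genes were ranked by this interval in the same cells, so an interval away from 0 was partly fixed by the choice. It covers the counting of UMIs and not the spread between cells or animals. Among those higher in the KO library, Car2, a carbonic anhydrase, was at 2.97 [1.59, 4.69], Nme6, a nucleoside diphosphate kinase, at 2.27 [1.37, 3.28] and Akap12, a kinase-anchoring protein, at 1.69 [1.29, 2.10]. Among those lower, Naa25, of an N-terminal acetyltransferase, was at -2.50 [-2.83, -2.18], with UMIs in 59 and 102 cells, though it overlaps another gene on its strand. Krt15, a basal keratin, was at -3.07 [-4.11, -2.18], Il1f6, the cytokine IL-36 alpha, at -2.94 [-3.81, -2.17], Saa2 at -2.85 [-3.76, -2.06] and Gsta1, a glutathione transferase, at -2.01 [-2.38, -1.66]. Pomc, the precursor of ACTH and melanocortins, was at -3.23 [-4.73, -2.04] and Ccl8, a monocyte chemokine, at -2.71 [-3.42, -2.07]. In the Aire-positive cells Gsta1 (-1.08) and Ccl8 (-1.04) were also lower in the KO library and Trp53cor1 (2.91 [2.69, 3.12]) higher. There Pomc was at -0.47, Saa2 at -0.34, Naa25 at -0.30, Krt15 at -0.25, Car2 at -0.03, Il1f6 at 0.18, Nme6 at -0.42 and Akap12 at -0.55, and none of these differences between classes was tested. Without cells carrying a mimetic list, Dnah5 and Saa2, which are list genes, turned to -1.26 and 0.33, and Krt15 was at -0.57.

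**Figure D5:**
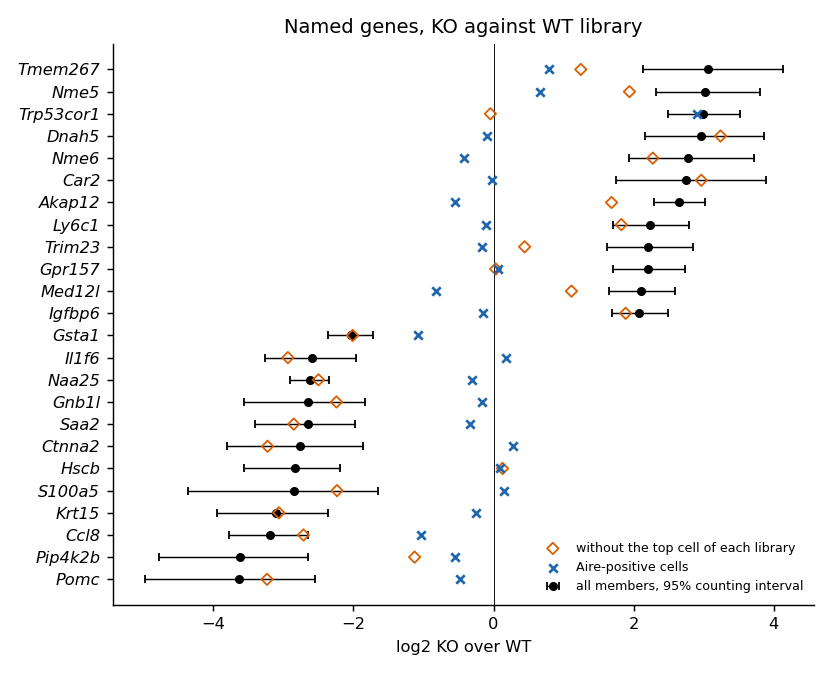
Log2 ratio of the library labelled KO over WT (x axis) for the 24 named genes in the Aire-negative Fezf2 cells, with 95% counting intervals (black), without the cell with most UMIs in each library (orange diamonds) and in the Aire-positive cells (blue crosses). Trp53cor1, Gpr157 and Hscb move to between -0.04 and 0.13 without the top cells, whereas Dnah5, Car2, Krt15 and Pomc stay at about 3 in size.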

How the data were processed

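The values deposited are unnormalized UMI counts, 1 per gene and cell barcode. Per the file headers they come from Cell Ranger 7.0.1, and Seurat and mm10 are named in the submitters' processing notes. Cells needed 500 genes, 1000 UMIs and a mitochondrial share of no more than 10%, which left 3584 (KO) of 4277 and 4037 (WT) of 4957 barcodes. Genes needed a mean of 10 CPM over the class sums compared. UMIs were summed per library and class and scaled to CPM, and a gene was called at 2-fold. Ratios have conditional binomial, shares Clopper-Pearson and share ratios Katz intervals. The recovery of ratios was tested on simulated sums with counting error only. That simulation had no spread between cells, so it does not cover genes whose UMIs gather in single cells. Scrublet (scanpy 1.11.5) called 0 doublets in either library and is taken not to have worked, so none were removed. The libraries share 5 barcodes. Genes were named by rank: the 12 highest and 12 lowest by the smaller ratio of both libraries, or by the interval bound nearest 0 between libraries, with UMIs in at least 5% of the cells of the higher side. Genes of the rule, mitochondrial, ribosomal, haemoglobin, Xist, Y-linked and predicted genes were left out of the ranking. Of the 48, 5 overlap another gene on the same strand and 11 on the opposite strand, and their counts may include it. The members and lists were chosen with earlier results of these data known. Alternatives covered cell filters, depth, scaling, doublet scores and marker-carrying cells. The values of 1 further gene of a list are not reported here.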

Additional observations from a re-analysis of the deposited data

Results flagged for a closer look

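Of the 48 named genes, 24 of which were picked for their KO against WT difference in the same Aire-negative cells, 5 are set apart here, out of 26 such genes among all compared. For these 5 the ratio of Aire-negative over Aire-positive Fezf2 cells pointed in opposite directions in the libraries, at least 2-fold each way. The difference was not tested, because each genotype has 1 library. On the log2 scale, Akap12 was 1.77 in the KO library and -1.43 in the WT library, a difference of 3.2. Dnah5 differed by 3.05 (1.58 and -1.47) and Tmem267 by 2.26 (1.13 and -1.13). Krt15 differed by -2.86 (-1.0 and 1.85) and Gnb1l by -2.48 (-1.45 and 1.04). Single cells weigh on some of them: 196 of the 378 Akap12 UMIs and 52 of the 70 Tmem267 UMIs of the Aire-negative KO cells, and 60 of the 181 Krt15 UMIs of the Aire-negative WT cells, lay in 1 cell.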

How the results depend on the processing

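No paired analysis was possible because each genotype has 1 library and no test was made. The log2 KO/WT share of Aire-negative cells was -0.46 with at least 3 Fezf2 UMIs and -0.57 without cells carrying a mimetic list. Genes higher and lower in Aire-negative cells numbered 228 and 177 of 3806 compared at a level filter of 50 CPM, against 603 and 575 of 10490 in the report. With no filter beyond 10 UMIs they numbered 1124 and 1917 of 21770, where 37.0% of calls were higher against 51.2% in the report. KO against WT, 28 and 34 of 3945 genes were called at 50 CPM and 984 and 922 of 15422 without the filter, against 234 and 230 of 10293 in the report. At 2000 UMIs per cell they were 628 and 583 of 10296, and without cells carrying a mimetic list 427 and 582 of 9709. Over the alternatives run, 605 of 720 values of the named class differences moved by less than their counting interval (including 48 under each level filter, which leaves a ratio as it is) and 3 changed sign: Pir (KO, -0.10) and Pdzk1ip1 (-0.68 and -0.22), without mimetic carriers. At 2000 UMIs per cell 26 of 48 moved further, and 25 of 48 without mimetic carriers. Of 336 values between libraries 288 held (including 24 under each level filter, which leaves a ratio as it is) and 10 changed sign. Without mimetic carriers only 6 of 24 held. With at least 3 Fezf2 UMIs 13 of 24 held, and without the top cells 15 of 24. The changes of sign with at least 3 Fezf2 UMIs were Trp53cor1 (-1.48), Gpr157 (-0.36) and Trim23 (-0.27). Without mimetic carriers they were Trp53cor1 (-1.09), Dnah5 (-1.26, itself in a list), Gpr157 (-1.16), Hscb (0.55) and Saa2 (0.33, itself in a list). Without the top cells they were Trp53cor1 (-0.045) and Hscb (0.13). These last 2 alternatives were chosen after seeing the data. The cause was not tested. At low depth, 0 Aire UMIs does not show that Aire is absent.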
